A study of Xenopus tropicalis with 31 samples.

Results

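The Pax genes encode transcription factors that bind DNA through a paired domain, and several also carry a homeodomain. They fall into subfamilies, pax1 with pax9, pax2 with pax5 and pax8, pax3 with pax7, and pax4 with pax6. In vertebrate embryos pax6 acts in progenitors of the neural tube and in the eye, pax3 and pax7 in the dorsal neural tube, neural crest and muscle precursors, and pax2, pax5 and pax8 in the midbrain-hindbrain boundary, the kidney, the ear and spinal interneurons. Outside the nervous system pax1 and pax9 act in the sclerotome and the pharyngeal pouches. The accessible chromatin around these genes was described in tails of Xenopus tropicalis tadpoles before and during regeneration. Members are all windows of the deposited ATAC-Seq table whose nearest gene is pax1, pax2, pax3, pax5, pax6, pax7, pax8 or pax9. These were 49 of 124349 windows, of which 117398 had a nearest gene named, and all 49 passed the filter on low counts.

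ATAC-Seq cuts open chromatin with a transposase, and the number of fragments in a window measures its accessibility. The genotype label of every sample is that of a line with 3 transgenes, pax6:GFP, in which a pax6 promoter drives GFP, cryga:RFP and actc1:RFP. The count columns of the all-tissue libraries carry the letters WT, but by the study's methods they pool GFP+ with GFP- cells, which fits the genotype label. Tails were cut at NF stage 41, with the hindmost part removed, and tail tissue was taken uninjured or at 0, 6, 24 and 72 hours post amputation (hpa). The pax6 libraries hold GFP+ sorted cells, labelled as neural progenitors of the spinal cord, and the all-tissue libraries hold tail cells with and without GFP. With 5 timepoints this gave 10 groups of 2 or 3 samples, 13 pax6 and 14 all-tissue samples in all, and each library pooled several tadpoles. The labels do not say that replicates came from separate tadpoles, so p-values measure only the spread between these samples, which may be technical. The GFP gate marks cells that hold GFP, which need not be every neural progenitor. By the study's account it may also take in former progenitors that are differentiating and still hold GFP protein. In the study's single-cell RNA-Seq of GFP+ cells, part of the cells fell outside the neural clusters.

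Total counts per sample were 3069659 to 12130125 in the pax6 and 4401013 to 13256076 in the all-tissue samples. The library of pax6 72hpa replicate 3 stood apart, with no fragment in 174 windows against 4 to 38 windows in every other library used. Markers of cell types were read at windows that lie within 500 bp of the nearest transcription start site (TSS). The 4 neural progenitor windows summed to 15.6 to 30.5 CPM (counts per 1000000, scaled by TMM factors, median 22.8) in the pax6 and 17.9 to 35.4 CPM (median 24.2) in the all-tissue samples, and edgeR called 0 of them (adjusted p under 0.05, with 1 at an unadjusted p under 0.05, against 28.2% of all windows within that distance). Their median log2 fold change was -0.17, against -0.14 over all 10774 windows within that distance, of which 21 were called higher and 356 lower in pax6. At any distance 0 of 59 progenitor windows were called, with a median of 0.02, and 1 of 42 neuron windows was higher in pax6. The 3 epidermal windows summed to 7.69 to 20.4 CPM (median 13.2) in the pax6 and 11.1 to 28.3 CPM (median 20.1) in the all-tissue samples, and 1 of them, at epcam, was lower in pax6. At any distance 3 of 38 epidermal windows were lower and 0 higher. Over all 124342 windows tested, 1895 (1.52%) were called, 795 of them higher in pax6. The actc1 window was the only other marker window called within 500 bp of a TSS, and was higher in pax6.

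The windows were spread unevenly over the family. pax6 was the nearest gene of 12 windows, pax2 of 11, pax5 of 9, pax9 of 8, pax1 of 7 and pax8 of 2, while pax3 and pax7 were the nearest gene of 0 windows. Genes were matched by name, and some windows had an unnamed gene model or no gene as nearest. The absence of pax3 and pax7 therefore does not show that no accessible window lies near them. The median gene had 3 windows, and 91.1% of the 23175 genes named had fewer windows than pax6. The TSS positions that the window distances give on version 9.0 of the genome are 9859219 on chromosome 4 for pax6, 33735906 on chromosome 7 for pax2 and 97182293 on chromosome 1 for pax5. They are 88348706 on chromosome 8 for pax9, 25375293 on chromosome 5 for pax1 and 108477842 on chromosome 3 for pax8, the only one of them on the minus strand. Of the 49 windows, 21 lay upstream of the TSS, 27 downstream, and 1 held it, at pax9. The tables give the distance to the TSS and not whether a window is exonic or intronic.

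The Pax windows were mostly distal, as were annotated windows in general. 2 of 49 (4.08%) lay within 500 bp of the TSS, against 9.18% of all annotated windows, 9 lay within 5 kb and 13 over 50 kb away. The median distance was 21883 bp, against 16530.5 bp over all annotated windows. The pax2 windows reached from 169912 bp upstream to 10754 bp downstream, with 8 of 11 upstream. The 7 pax1 windows all lay downstream, between 3648 and 86785 bp, with 2 gaps of under 1 kb between neighbours. The pax6 windows reached from 30133 bp upstream to 87906 bp downstream, the pax5 windows from 70324 bp upstream to 99442 bp downstream, and the pax9 windows from 28130 bp upstream to 56375 bp downstream. The 2 pax8 windows lay 6901 bp upstream and 14380 bp downstream.

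All windows are 400 bp long, so their levels can be set side by side. The median Pax window had a mean of 3.23 CPM over the samples, against 4.84 CPM over all windows, and 7 of the 49 lay above that median. The most accessible were both at pax6, a window 11366 bp upstream of the TSS (mean 13.2 CPM) and one 34343 bp downstream (13.0 CPM). Next came the pax2 window 42509 bp upstream (8.22 CPM), the pax5 window 13588 bp upstream (7.04 CPM) and the pax9 window at the TSS (6.40 CPM). Counts of a Pax window in a sample ran up to 194, and 1 of the 1323 values was 0. That was the pax6 window 6717 bp downstream in pax6 uninjured replicate 2. There a count of 0 allows up to 0.749 CPM before TMM scaling, for counting error only.

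The first question was whether the chromatin near Pax genes differs between pax6 and all-tissue cells. A single Pax window did, chr4:9853878-9854277, 4941 bp upstream of the pax6 TSS. It had 5.14 to 13.3 CPM in the 13 pax6 samples (median 8.85) and 1.60 to 4.61 CPM in the 14 all-tissue samples (median 3.15). Every pax6 sample lay above every all-tissue sample, which held for 29 of 124342 windows tested (0.0233%). The fold change was 2.83 (95% interval 2.39 to 3.36), or 1.50 ± 0.12 on the log2 scale (SE), with an adjusted p of 1.55e-12 by edgeR's quasi-likelihood test. A permutation test of the difference in mean CPM gave the smallest p that 100000 resamples allow (two-sided, p = 2e-05). In bulk samples, more cells with an open window and a more open window per cell cannot be told apart. The part of the transgene's pax6 promoter in these values, taken up below, was not tested. Among all windows, 5 had a smaller p and 1 had a larger log2 fold change.

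**Figure D1:**
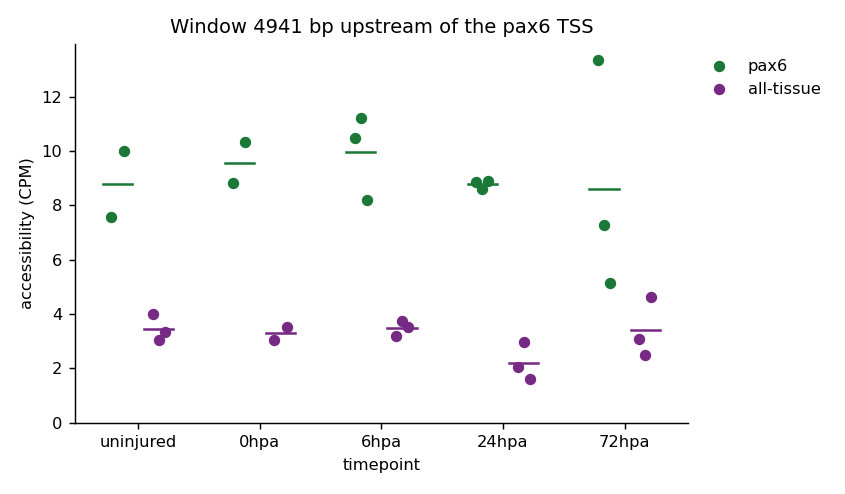
Accessibility (CPM) of the window 4941 bp upstream of the pax6 TSS by timepoint, with a point per sample and a line at each group's mean, for pax6 (left of each pair) and all-tissue samples. The pax6 samples sit between 5.14 and 13.3 CPM and all lie above the all-tissue samples, which sit between 1.60 and 4.61 CPM.

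The difference was seen at each timepoint. In uninjured tails the window had 7.56 and 9.98 CPM in the pax6 samples and 4.01, 3.04 and 3.35 CPM in the all-tissue samples. At 0hpa it had 8.80 and 10.3 CPM in the pax6 samples, against 3.06 and 3.52 CPM in the all-tissue samples. At 6hpa the pax6 samples had 10.5, 11.2 and 8.21 CPM and the all-tissue samples 3.20, 3.73 and 3.51 CPM. It follows from the separation over all timepoints that the groups did not overlap at any single timepoint, earlier or later. With 2 or 3 samples per group this was not particular to the window. At 0hpa the pax6 samples also lay above at the pax2 window 594 bp downstream and the pax5 window 13588 bp upstream. At the pax6 window 2808 bp upstream they did so at 0hpa, 6hpa and 72hpa. The share of all windows that did so within a timepoint is not given here. At 24hpa the pax6 samples had 8.85, 8.58 and 8.88 CPM and the all-tissue samples 2.04, 2.96 and 1.60 CPM. At 72hpa the pax6 samples had 13.3, 7.27 and 5.14 CPM and the all-tissue samples 3.09, 2.51 and 4.61 CPM. The spread at 72hpa in pax6 was the widest of these groups, and its lowest sample was replicate 3, the library with the most empty windows.

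The log2 fold change of this window was 1.26 ± 0.28 (SE) in uninjured tails, 1.55 ± 0.31 at 0hpa, 1.51 ± 0.26 at 6hpa, 1.99 ± 0.29 at 24hpa and 1.35 ± 0.25 at 72hpa. With edgeR's test over all windows it was called at 6hpa (adjusted p = 0.0033), 24hpa (0.00026) and 72hpa (0.0081), where 0.0844%, 0.0410% and 0.369% of all windows were called. It missed the threshold in uninjured tails (adjusted p = 0.136) and at 0hpa (0.0987), where 0.0129% and 0.00724% of windows were called. In those comparisons edgeR called 0 Pax windows at all, and 7 and 3 of the 49 had an unadjusted p under 0.05, against 7.30% and 5.74% of all windows. DESeq2 gave 0 and 3 of the 49 an adjusted p there and called 0. Exact two-sided permutation tests within a timepoint gave p = 0.2 in uninjured tails, p = 0.333 at 0hpa and p = 0.1 at each later timepoint, in each case the smallest p these group sizes allow. Adjusted over the 35 such tests of the 7 named windows, these exact p were 0.583, or 0.729 at 0hpa. The separation over all timepoints fixed these exact p in advance, so they are no separate support for the difference. The 5 timepoints were not shown to differ from each other, with an unadjusted p of 0.459 and an adjusted p of 0.925 for the interaction of tissue and timepoint. At 72hpa the call rested on 2 samples. Without pax6 replicate 1 the log2 fold change was 0.90 (adjusted p = 0.112) and without all-tissue replicate 1 it was 1.26 (0.0772), while without pax6 replicate 3 it was 1.58 (0.000755).

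Over all timepoints the call held with each sample left out. The log2 fold change was 1.45 to 1.55 with each of the 27 samples left out in turn, and 1.55 without pax6 72hpa replicate 3.

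The transgenes carry promoters of pax6, cryga and actc1. Windows of these genes were set beside the pax6 window after its value was seen. The window that holds the TSS of actc1, which encodes cardiac and early skeletal muscle actin, had 5.12 to 12.6 CPM in the pax6 samples (median 8.29) and 2.36 to 5.53 CPM in the all-tissue samples (median 3.49). The log2 fold change was 1.32 ± 0.12 (SE, adjusted p = 1.67e-10, edgeR), and the groups overlapped. The other actc1 windows, 8526 and 21979 bp downstream, had log2 fold changes of 0.29 and 0.10 and were not called (adjusted p = 0.463 and 0.822). Of the 15 windows of the skeletal muscle list at any distance, that actc1 window was the only one called, against 1.52% of all windows. The median log2 fold change of the list was 0.10. cryga was the nearest gene of 0 windows. The part of the transgenes in the values of these windows was not tested.

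The called window took a larger share of the counts at the pax6 locus in pax6 samples, by the same counts that gave its call. It held 7.83% to 18.8% of the counts in the 12 pax6 windows of a pax6 sample (median 14.2%) and 3.42% to 7.51% in an all-tissue sample (median 5.53%). The nearest window to the TSS, 2808 bp upstream, had 2.80 to 7.30 CPM in the pax6 samples (median 4.24) and 2.86 to 4.21 CPM in the all-tissue samples (median 3.59). The groups overlapped, and a log2 fold change of 0.33 ± 0.12 (SE) was not called (adjusted p = 0.165, edgeR). The most accessible pax6 windows were not called. The window 11366 bp upstream had 8.72 to 18.1 CPM in the pax6 samples (median 12.8) and 9.67 to 18.6 CPM in the all-tissue samples (median 13.3), and the window 34343 bp downstream had 8.66 to 19.4 CPM (median 12.5) in pax6 and 9.86 to 16.9 CPM (median 13.0) in all-tissue. Their log2 fold changes were -0.06 (95% interval -0.25 to 0.12) and -0.01 (-0.18 to 0.17).

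The window 39024 bp downstream of the pax6 TSS lay just short of the threshold and is named for that reason, after its values were seen. It had 2.10 to 4.55 CPM in the pax6 samples (median 3.16) and 1.14 to 3.20 CPM in the all-tissue samples (median 2.21), with overlapping groups. Its log2 fold change was 0.53 ± 0.15 (SE, adjusted p = 0.0517, edgeR), and under the alternatives tried the adjusted p ranged from 0.0200 to 0.119. The remaining 7 pax6 windows had log2 fold changes of -0.26 to 0.32.

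**Figure D2:**
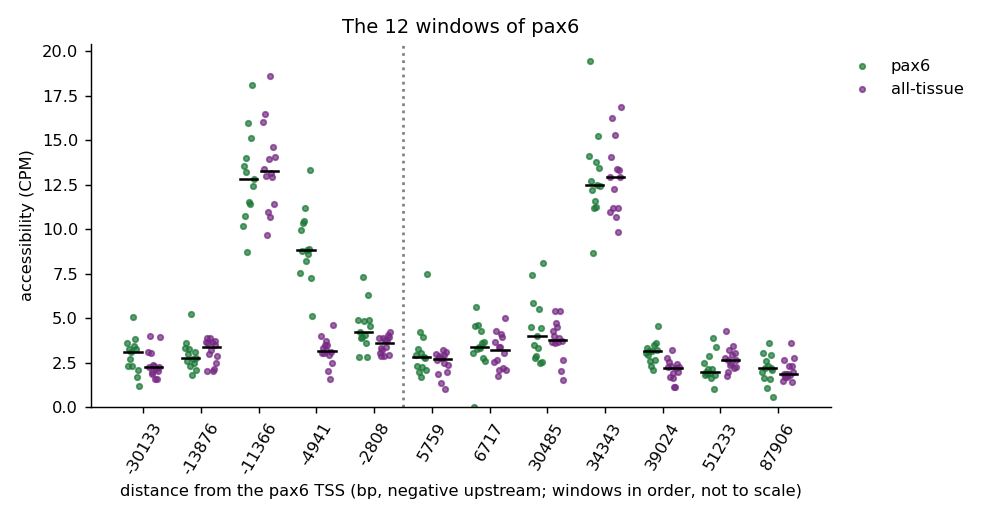
Accessibility (CPM) of the 12 pax6 windows in order of their distance from the TSS (dotted line), with a point per sample and a black line at the median, for pax6 (left of each pair) and all-tissue samples. At -4941 bp the medians are 8.85 CPM in pax6 and 3.15 CPM in all-tissue, and at -11366 bp they are 12.8 and 13.3 CPM.

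Over the family, 1 of 49 Pax windows was called between the tissues, against 1.52% of all windows. At an unadjusted p under 0.05 there were 5 Pax windows, against 14.5% of all windows. DESeq2 called the same window, and gave 20 of the 49 an adjusted p. Neither count of Pax windows stood out from these backgrounds. The log2 fold change was positive in 31 of 49 Pax windows, against 50.2% of all windows, and its median was 0.08, against 0.00 over all windows. Without the called window the Pax median was 0.07, over a range from -0.26 to 0.53. The set of all windows was not matched to the Pax windows for distance from the TSS or for level, in which they differed.

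**Figure D3:**
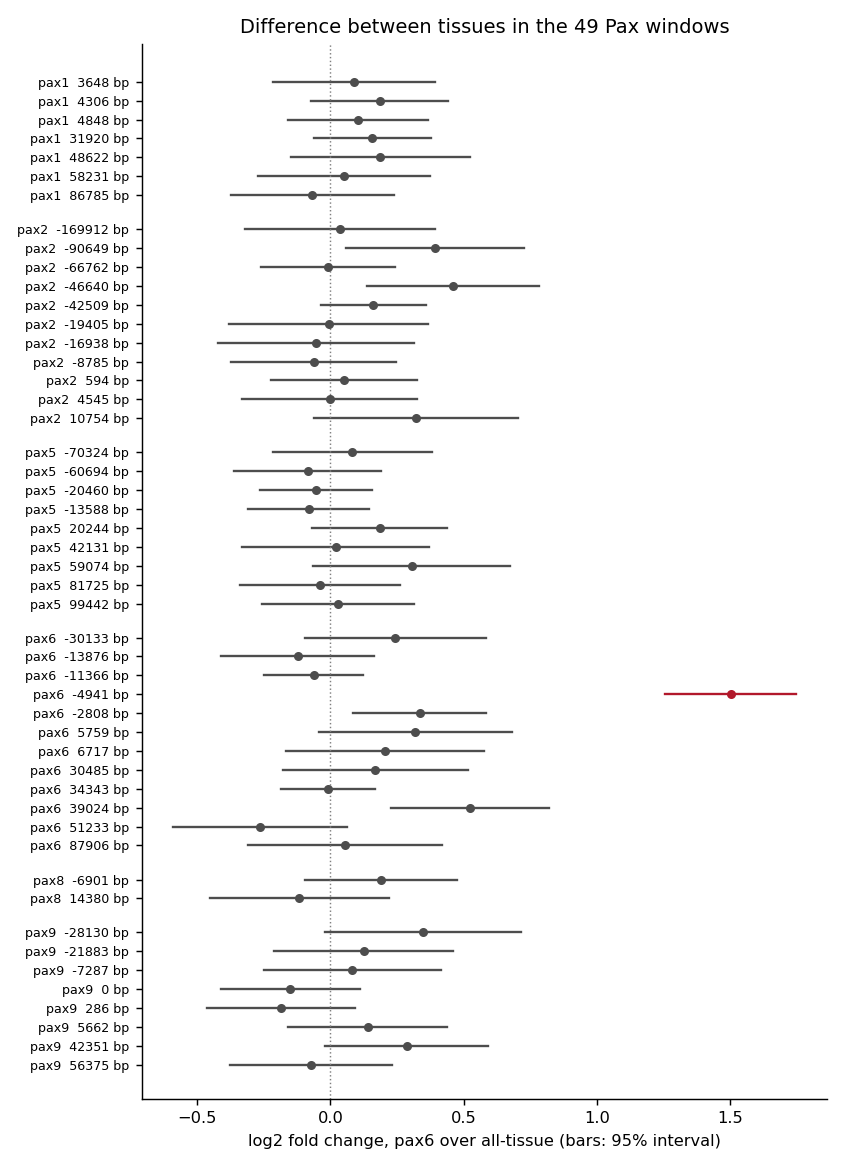
Log2 fold change of pax6 over all-tissue samples in each of the 49 Pax windows, grouped by gene and ordered by distance from the TSS, with 95% intervals as bars. The window 4941 bp upstream of the pax6 TSS (red, adjusted p under 0.05) stands at 1.50, and the other 48 lie between -0.26 and 0.53.

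Among the other 5 Pax genes with windows, edgeR called 0 of 37 windows in this comparison, and 2 had an unadjusted p under 0.05. DESeq2 gave 15 of the 37 an adjusted p and called 0 of those. The pax2 window 594 bp downstream of its TSS had 2.49 to 6.39 CPM (median 3.98) in the pax6 and 2.86 to 5.26 CPM (median 3.63) in the all-tissue samples, with a log2 fold change of 0.05 (95% interval -0.22 to 0.32). For pax5, a gene best known from the midbrain and from B cells, the nearest window, 13588 bp upstream, had 4.74 to 9.68 CPM (median 6.87) in the pax6 and 4.20 to 10.4 CPM (median 6.77) in the all-tissue samples. Its log2 fold change was -0.08 (95% interval -0.31 to 0.15). For pax8, known from the thyroid and kidney, the window 6901 bp upstream had 1.88 to 6.76 CPM (median 4.21) in pax6 and 2.63 to 6.13 CPM (median 3.89) in all-tissue samples, and its log2 fold change was 0.19 (95% interval -0.10 to 0.48). In each of the 3 the groups overlapped.

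The largest log2 fold change in this subfamily was at the pax2 window 46640 bp upstream, 0.46 ± 0.16 (SE, unadjusted p = 0.0060, adjusted p = 0.135, edgeR). It is named after its values were seen and was not called.

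In the sclerotome genes the window nearest pax1, 3648 bp downstream of its TSS, had 1.60 to 5.59 CPM (median 2.95) in the pax6 and 2.01 to 4.01 CPM (median 2.94) in the all-tissue samples. Its log2 fold change was 0.09 (95% interval -0.21 to 0.39). The window over the pax9 TSS had 1.79 to 8.78 CPM (median 6.33) in the pax6 and 3.86 to 11.1 CPM (median 6.68) in the all-tissue samples, with a log2 fold change of -0.15 (95% interval -0.41 to 0.11). Its lowest values in pax6, 4.71 and 1.79 CPM, were those of the uninjured samples.

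Counts summed over all windows of a gene gave a value per gene with less counting error. The sum was called for pax6 alone of the 6 genes, against 2.73% of 23175 genes. It was 64.5 to 85.9 CPM in the pax6 samples (median 71.2) and 51.5 to 69.0 CPM in the all-tissue samples (median 62.4), a log2 fold change of 0.23 ± 0.05 (SE, adjusted p = 0.00225, edgeR), and the groups overlapped. With that window left out of the sum, a setting chosen after seeing the data, the log2 fold change was 0.09 and the adjusted p was 0.274. The pax2 sum was 39.1 to 52.3 CPM in the pax6 (median 42.6) and 32.7 to 47.7 CPM in the all-tissue samples (median 39.7), with a log2 fold change of 0.14 ± 0.05 (SE, adjusted p = 0.144). For pax1, pax5, pax8 and pax9 the log2 fold changes of the sums were 0.13, 0.04, 0.05 and 0.06, and the 95% intervals reached from -0.17 at the lowest to 0.27 at the highest.

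By timepoint the pax6 sum averaged 75.3 ± 7.0 CPM in pax6 and 66.0 ± 4.2 CPM in all-tissue samples of uninjured tails (SD, n = 2 and 3). It averaged 72.0 ± 1.2 and 59.9 ± 7.7 CPM in pax6 and all-tissue samples at 0hpa (n = 2 each), 71.1 ± 4.8 and 60.5 ± 3.0 CPM at 6hpa, 69.7 ± 4.7 and 59.0 ± 6.9 CPM at 24hpa, and 75.1 ± 10.2 and 62.1 ± 6.5 CPM at 72hpa (n = 3 each). The pax6 samples had the higher mean at each timepoint, and the sums were not tested by timepoint.

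**Figure D4:**
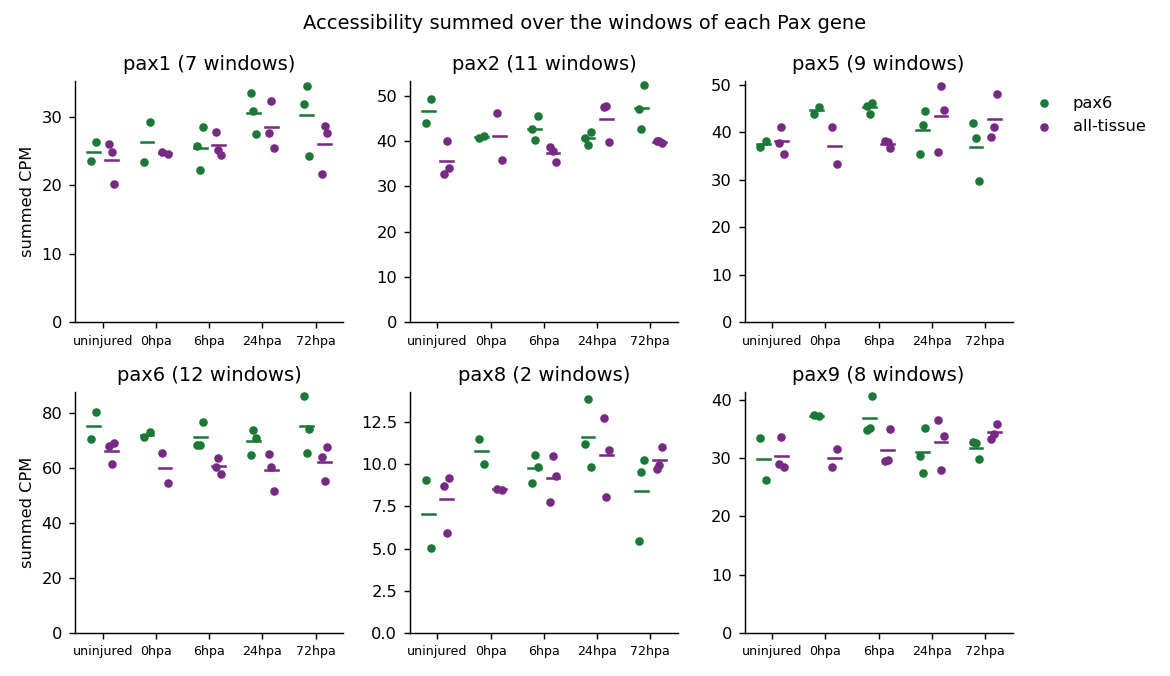
Accessibility summed over the windows of each of the 6 Pax genes (CPM), with a point per sample and a line at each group's mean, by timepoint, for pax6 (left of each pair) and all-tissue samples. The pax6 gene lies higher in pax6 samples, with medians of 71.2 CPM in pax6 and 62.4 CPM in all-tissue samples, and the groups overlap in all 6 genes.

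The next question was whether Pax windows open or close during regeneration. In the pax6 samples edgeR called 0 of 49 Pax windows in each of the 4 contrasts, and 0% of all windows. At an unadjusted p under 0.05 there were 6 Pax windows for 6hpa against uninjured (7.32% of all windows), 7 for 24hpa against 6hpa (7.71%), 7 for 72hpa against 24hpa (7.14%) and 6 for 72hpa against uninjured (8.55%). DESeq2 called 0 Pax windows in each of these contrasts, and left most of them without an adjusted p. The test over all 5 timepoints in pax6 called 0 Pax windows, against 0.000804% of all windows, with 5 at an unadjusted p under 0.05, against 7.44%. Calls over time in pax6 arose when pax6 uninjured replicate 1 was left out, which leaves replicate 2 alone in its group and assumes that it varies like the others. The pax6 window 6717 bp downstream, with 0 counts in replicate 2, was then called for 6hpa (adjusted p = 0.00975) and for 72hpa against uninjured (0.0192), and the pax9 window at the TSS for 72hpa against uninjured (0.0487). Without that sample the calls over all windows also went up, to 1411 (1.13%) for 6hpa and 1783 (1.43%) for 72hpa against uninjured.

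In the all-tissue samples edgeR also called 0 Pax windows in each contrast. That held for 6hpa against uninjured and for 24hpa against 6hpa, where 0% of all windows were called and 0 Pax windows had an unadjusted p under 0.05, against 4.67% and 4.38% of all windows. For 72hpa against 24hpa 0.000804% of all windows were called, and 1 Pax window had an unadjusted p under 0.05, against 3.99%. For 72hpa against uninjured 0.109% of all windows were called, and 3 Pax windows had an unadjusted p under 0.05, against 8.16%. Over all 5 timepoints 0.105% of all windows were called, and 2 Pax windows had an unadjusted p under 0.05, against 7.58%. DESeq2 called 0 Pax windows in these tests, but gave only 6 of the 49 an adjusted p for 72hpa against uninjured and 7 over all timepoints. The interaction of tissue and timepoint called 0 Pax windows with edgeR, against 0.00402% of all windows, and 6 had an unadjusted p under 0.05, against 6.64%. DESeq2 gave 2 Pax windows an adjusted p in that test and called 0.

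The called pax6 window was not called over time in either tissue. In the pax6 samples its log2 fold change was 0.24 (95% interval -0.28 to 0.76) for 6hpa against uninjured, -0.19 (-0.64 to 0.26) for 24hpa against 6hpa, -0.02 (-0.48 to 0.43) for 72hpa against 24hpa and 0.03 (-0.49 to 0.55) for 72hpa against uninjured. In the all-tissue samples the largest of the same contrasts was 24hpa against 6hpa, at -0.67 (-1.34 to 0.00), which was not called.

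**Figure D5:**
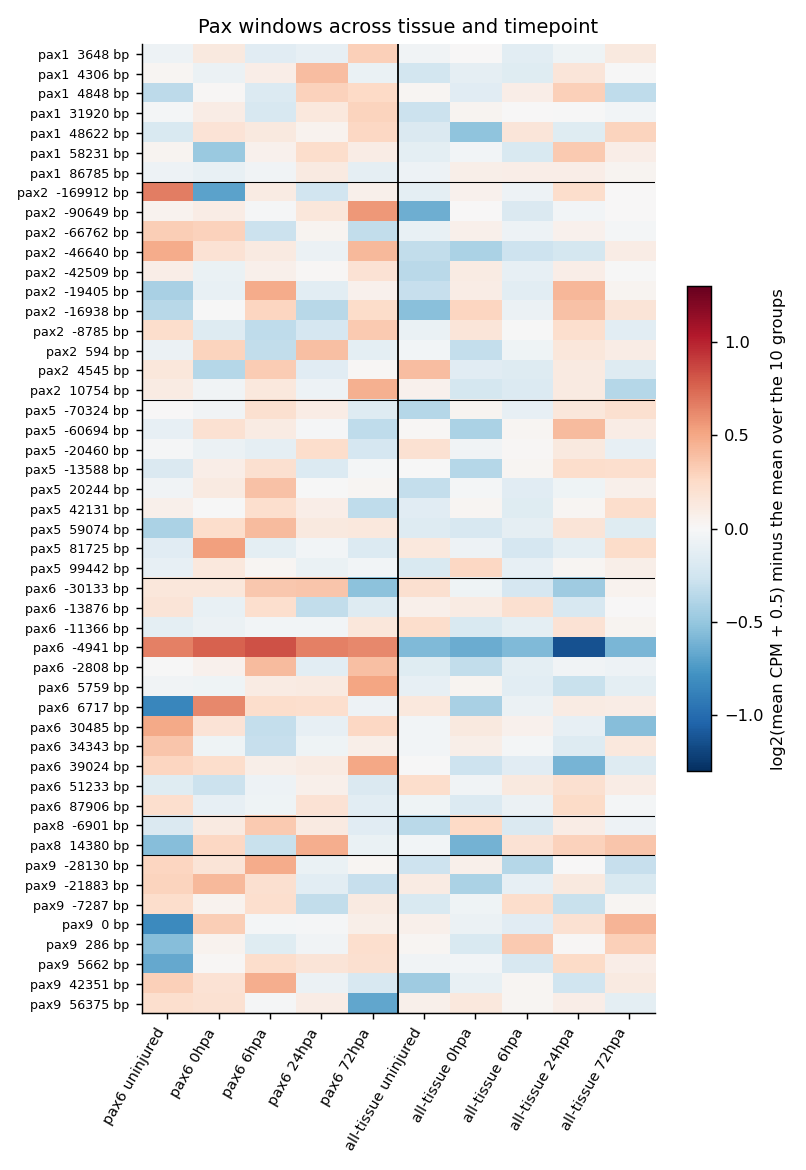
Mean accessibility of each of the 49 Pax windows in the 10 groups, as log2(mean CPM + 0.5) minus the window's mean over the groups, with pax6 groups left of the line and all-tissue groups right of it, and red for higher values. The row of the window 4941 bp upstream of the pax6 TSS is red in all 5 pax6 groups and blue in all 5 all-tissue groups, and the other rows hold no call by timepoint.

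The nearest-gene rule can assign a window beside a Pax gene to a neighbour, so windows of other genes within 100 kb of a Pax TSS were read from the same comparison of tissues. There were 28, of which 15 lay near pax8, 6 near pax1, 5 near pax6 and 2 near pax9. Of these 28, 1 was called, against 1.52% of all windows, and 4 had an unadjusted p under 0.05, against 14.5%. The called window was chr3:108424234-108424633, 53208 bp downstream of the pax8 TSS and 14277 bp from that of the gene named LOC100486881-like. It had 2.96 to 7.17 CPM in the pax6 samples (median 5.47) and 5.10 to 10.3 CPM in the all-tissue samples (median 7.56). The log2 fold change was -0.46 ± 0.12 (SE, adjusted p = 0.0296, edgeR), with overlapping groups. The call was lost, with adjusted p of 0.0537, 0.0582 and 0.0586 and log2 fold changes of -0.41, -0.42 and -0.43, when pax6 24hpa replicate 3, all-tissue 24hpa replicate 3 or all-tissue 72hpa replicate 3 was left out. The 5 windows near pax6 annotated to rcn1 and an unnamed gene model had log2 fold changes of -0.07 to 0.08 and were not called.

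Genes that act with or downstream of Pax factors were read at windows within 5 kb of their TSS. Of 24 windows of the ventral spinal cord list, which holds genes of the progenitor domains that pax6 helps to pattern, 1 was lower in pax6 and 0 were higher. It lay 199 bp from the TSS of irx3, a homeodomain factor of the neural tube, with 1.58 to 8.19 CPM in pax6 (median 4.42) and 3.82 to 8.50 CPM (median 6.24) in all-tissue samples and a log2 fold change of -0.51 ± 0.13 (SE, adjusted p = 0.0337, edgeR). Of 15 windows of the kidney, ear and midbrain list, 1 was higher in pax6 and 0 were lower. It lay 1809 bp upstream of gdnf, a growth factor whose expression in the mouse kidney depends on Pax2, with 3.91 to 6.65 CPM in pax6 (median 5.14) and 2.23 to 4.82 CPM (median 3.77) in all-tissue samples. Its log2 fold change was 0.52 ± 0.12 (SE, adjusted p = 0.00891). In the other lists 0 windows were called, of 17 for genes of the Eya and Dach families and their homeodomain partners, 11 for neural crest and muscle genes, 12 for sclerotome and pharynx genes and 10 for neighbours of the pax6 locus, while 2, 4, 2 and 2 of them had an unadjusted p under 0.05. In the ventral spinal cord list this was so for 5 windows and in the kidney, ear and midbrain list for 2, against 19.1% of all windows within 5 kb of a TSS. The median log2 fold changes of the 6 lists ran from -0.15 to 0.02, against -0.05 over all 30296 windows within 5 kb of a TSS, of which 112 were called higher and 568 lower in pax6.

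The windows of other genes whose accessibility over the 27 samples was most like that of the called pax6 window were found by Pearson correlation of log2 CPM, as a description. They were windows near Xetrov90001217m.g (r = 0.89), bloc1s3 (0.89), LOC100486850-like (0.88), iqcd (0.88) and LOC100495583-like.1 (0.87). All 5 were also called higher in pax6, with log2 fold changes of 1.31, 1.20, 0.38, 0.49 and 1.24. The 27 points share the split into pax6 and all-tissue samples.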

How the data were processed

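Reads were trimmed by the authors with Trim Galore and mapped with Bowtie2 to genome version 9.0. Duplicates were removed, and the authors called peaks with MACS2 on merged alignments of all libraries and counted fragments per window with featureCounts. The deposited counts are whole numbers without normalization. The deposited summit scores are -log10 q-values, and the nearest gene and its distance in bp come from the authors' annotated table. Its log2 fold changes and p-values from the authors' own comparison were not used. Of 31 libraries 29 were used, and 2 with under 1000000 counts (pax6 0hpa replicate 1 and uninjured replicate 3) were left out. Second libraries of 2 all-tissue samples were summed with the replicate their title names, which gave 27 samples. How the submitters' tools were versioned is not given in the sources used here.

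Windows reaching 1 CPM in 2 or more samples (124342) entered the robust quasi-likelihood F test of edgeR 4.0.16 after TMM scaling (R 4.3.3), with Benjamini-Hochberg adjustment over all windows and a threshold of 0.05. A model with 2 groups compared the tissues and a model with 10 groups gave the timepoints. CPM are TMM-scaled. SEs were derived from log2 fold changes and F statistics, and 95% intervals from the t distribution. Gene sums add the counts of all windows of a gene. Permutation tests used scipy 1.17.1 and Python 3.11.15, and figures matplotlib 3.10.9. DESeq2 1.42.0, other normalization, tests, filters, thresholds and libraries, and each sample left out, were tried. The fits were tested on simulated data.

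The members, partner lists and marker lists were chosen with earlier results of these data known. Named windows are, for each Pax gene, the window nearest its TSS, and every called Pax window, with partner genes named at called windows within 5 kb and neighbours where called. Other Pax windows given with values were named after these were seen, also where the text does not say so. They include the most accessible windows and the pax6 window 6717 bp downstream. Samples were treated as unpaired, though pairing by replicate number was not excluded. Of the 108 same-numbered pairs, 2.78% had a correlation of deviations over 0.1 (median r 0.01). Yet 19 of 27 samples were closest to their own number, and a model with a replicate block was also tried. No sequence is printed, because no genome of the files' build was used.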

Additional observations from a re-analysis of the deposited data

How the results depend on the processing

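The call at the window 4941 bp upstream of the pax6 TSS over all timepoints held under every alternative tried, with log2 fold changes of 1.49 to 1.59 under other settings and 1.45 to 1.55 with each sample left out, and no called value changed direction in any setting. The number of Pax windows called between the tissues was 1, and it was 2 with RLE normalization, the likelihood ratio test, the replicate block and timepoint as a covariate, and 1 to 2 with each sample left out. The added window was the 1 that lies 39024 bp downstream of the pax6 TSS (adjusted p of 0.0496, 0.0200, 0.0485 and 0.0322). It also passed without all-tissue 6hpa replicate 1, all-tissue uninjured replicate 1, pax6 24hpa replicate 1 or pax6 6hpa replicate 2 (log2 fold changes of 0.57, 0.56, 0.56 and 0.55). With the replicate block the count moved to 2 Pax windows and no other Pax call changed. As a hint from the data, 19 of 27 samples were closest to their own number, while the median correlation of same-numbered pairs was 0.01, against -0.01 for others. With an unadjusted p under 0.01 the count was 4, and the share of all windows at that cut is not given here. With one under 0.05, chosen after seeing the data, it was 5, against 14.5% of all windows.

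Within timepoints the likelihood ratio test called 1 Pax window in uninjured tails and 1 at 0hpa. An unadjusted p under 0.01 gave 2 in uninjured tails, 2 at 0hpa and 2 at 24hpa, and one under 0.05 gave 7, 3, 4, 5 and 6 from uninjured to 72hpa. Under 0.05 the share of all windows was 7.30% in uninjured tails and 5.74% at 0hpa. The other shares are not given here, so these counts are not read as a result about Pax windows. With each sample left out the counts ran from 0 to 2 in uninjured tails, 0 to 1 at 0hpa and 0 to 1 at 72hpa, and stayed at 1 at 6hpa and at 24hpa, while calls over all windows ran from 4 to 1001 in uninjured tails, 3 to 12 at 0hpa and 42 to 823 at 72hpa. DESeq2 gave the pax6 window no adjusted p in uninjured tails, at 0hpa and at 6hpa, so it has no count at 6hpa.

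Over time, an unadjusted p under 0.01 gave 1, 1, 1 and 2 Pax windows in the 4 pax6 contrasts. In all-tissue samples it gave 1 each for 72hpa against 24hpa and for 72hpa against uninjured. The shares of all windows at that cut are not given here. An unadjusted p under 0.05 gave 6, 7, 7, 6 and 5 in pax6, against 7.14% to 8.55% of all windows. It gave 1, 3 and 2 in the later all-tissue tests, against 3.99%, 8.16% and 7.58%, and 6 in the interaction, against 6.64%. Leaving out a sample gave 0 to 1 for 6hpa against uninjured, 0 to 2 for 72hpa against uninjured, 0 to 1 over all timepoints in pax6, and 0 to 1 in the interaction. Over all windows the same settings gave 0 to 1411, 0 to 1783, 0 to 453 and 1 to 135 calls. Each of these Pax calls came without pax6 uninjured replicate 1, which leaves replicate 2 alone in its group, assumed to vary like the others, and they were at the pax6 window 6717 bp downstream, with 0 counts in replicate 2, and once at the pax9 window over the TSS.

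The pax6 gene sum was called in every setting except without its called window, where 0 Pax genes were called. In the sums of all windows, an unadjusted p under 0.05 (edgeR) gave 2 genes. The share of all genes at that cut is not given here. Windows of other genes near a Pax TSS gave 1 call of 28, against 1.52% of all windows, 0 within 50 kb, and 0 to 1 with a sample left out. At an unadjusted p under 0.05 there were 4, against 14.5%, and under 0.01 there were 2, where the share of all windows is not given here. With 23 libraries, chosen after seeing the data, the log2 fold change of the pax6 window was 1.59. Over all windows, 1895 were called in the comparison of tissues, 3211 by the likelihood ratio test, 3120 with 23 libraries and 1267 to 3269 with a sample left out. Counts of a Pax window in a sample reached 194 at most, and groups held 2 or 3 samples.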
